A study of Gallus gallus with 26 samples.

Results

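The HOX genes are 35 genes of the HOXA, HOXB, HOXC and HOXD clusters, chosen by symbol (HOX, a cluster letter from A to D and a position number) from the 25079 genes of the messenger RNA tables. HOXA holds 11 of them, HOXB 9, HOXC 6 and HOXD 9. RNA was measured in chicken (Gallus gallus) ovary in 3 groups, which the labels call normal ovary (4 samples), early-stage ovarian cancer (4 samples) and late-stage ovarian cancer (5 samples). No treatment, strain, hen age or genotype is given in the sources used here, and the tumours are named by stage alone. Whether each sample comes from its own hen is not stated, and the p-values describe variation among the samples alone. Each sample code was taken to have 1 messenger RNA library and 1 library of microRNAs (miRNAs, short RNAs that pair with messenger RNAs). Libraries are named here by group and by the number in their code.

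HOX genes encode homeodomain transcription factors that give cells their position along the body axis. They lie side by side on several chromosomes, and within a cluster the order of the genes mirrors where along the head-to-tail axis each one is used, with low position numbers active further forward. In the mouse, Hoxa9, Hoxa10, Hoxa11 and Hoxa13 pattern successive segments of the Müllerian duct, the embryonic source of the oviduct and uterus. Below, position numbers 1 to 4 are called anterior, 5 to 8 central and 9 to 13 posterior.

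The messenger RNA libraries held 16273700 to 20118600 estimated counts. A list of 11 granulosa, theca and oocyte markers had counts for all its genes, with a summed TPM (a transcript level scaled for gene length and library total) of 867 to 1480 in normal ovary, 716 to 1638 in early tumour and 1028 to 1667 in late tumour. Late 3 stood apart from the other libraries. It had the lowest value of the 13 libraries for 20.7% of the 16130 genes tested and the highest for 19.6%, in CPM (counts scaled by library size and normalised for composition, not by gene length). Its summed TPM was the lowest of the 13 libraries for 13 smooth muscle markers (255), 14 fibroblast and matrix markers (476) and 7 leukocyte markers (174). The sum of 8 epithelial markers was highest in late 3 (1718 TPM), of which EPCAM alone gave 1624 TPM, and 3 of the 8 were lowest there and 2 highest. Many of the HOX results in which late 3 is extreme are therefore also given without it.

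The ovary expressed a HOX set led by HOXA genes. HOXA7 was the most abundant member, with a mean of 88 TPM over the 13 libraries, above the mean of 92.3% of all genes in the table. In normal ovary HOXA7 measured 93.0, 102.0, 80.7 and 88.4 TPM in normal 3, 4, 6 and 7. Early tumours had 75.2, 98.3, 75.6 and 77.1 TPM in early 9, 11, 12 and 21. Late tumours had 123.1, 90.7, 84.0, 77.9 and 77.6 TPM in late 3, 7, 23, 25 and 31. The 3 groups overlapped, and the lowest HOXA7 level in any library (75.2 TPM) was above the highest level of any other HOX gene in any library (64.2 TPM, HOXC13 in late 3).

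After HOXA7 the means over all libraries were 29.5 TPM for HOXB2, 26.5 for HOXA6, 26.4 for HOXC13, 20.5 for HOXA4, 19.7 for HOXA9, 19.2 for HOXB5, 18.6 for HOXC9, 17.8 for HOXA3, 13.8 for HOXA5, 13.7 for HOXC8 and 12.6 for both HOXB7 and HOXB4. In this series of levels, neighbours overlapped between libraries. Together 13 members had a mean of 10 TPM or more and 27 had a mean of 1 TPM or more. The strongest HOXD gene was HOXD9, at a mean of 6.31 TPM, beside 6.29 for HOXB6 and 6.26 for HOXA10.

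Several posterior genes were close to silent. HOXC11 had no count in any library, which allows up to 3 counts per library (0.149 to 0.184 CPM, for counting error only). HOXD13, the digit and genital gene at the end of the HOXD cluster, had 1 count in each of 2 libraries, HOXB13 had 10 counts over all 13 libraries and HOXD12 had 45. HOXC10 had 10 counts in normal 4, 9 in normal 7 and none in the 4 early tumours. HOXC12 had 79 counts in all, of which 51 lay in late 23 (1.13 TPM). The other posterior HOXC genes, HOXC9 and HOXC13, were among the 8 most abundant members; HOXC13 regulates hair keratin genes in mammals. The 6 low genes and HOXD4 did not pass the filter on low counts, so 28 of 35 members were tested: 11 of HOXA, 8 of HOXB, 3 of HOXC and 6 of HOXD.

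**Figure D1:**
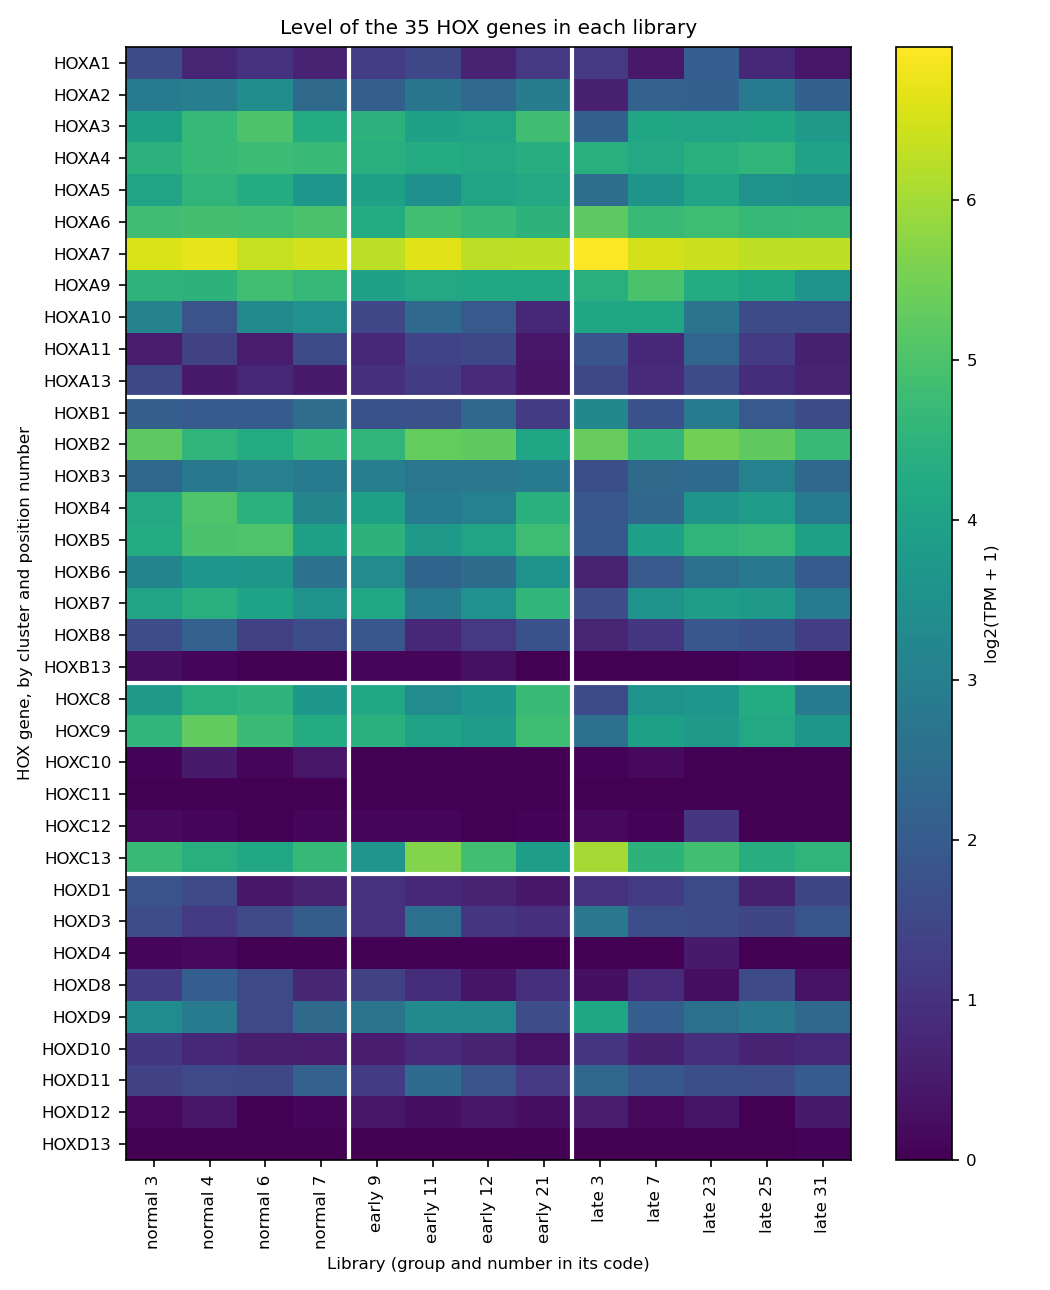
Level of each of the 35 HOX genes (rows, by cluster and position number) in each of the 13 libraries (columns, by group) as log2(TPM + 1), with white lines between groups and between clusters. HOXA7 is the brightest row in every library, and HOXC10 to HOXC12 and HOXD12 to HOXD13 stay dark.

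HOX genes made up 0.0274% to 0.0460% of all TPM in a library. HOXA genes held 55.1% of the summed HOX TPM on average, HOXB 24.9%, HOXC 16.1% and HOXD 3.95%. By position, central genes held 50.2%, anterior genes 27.1% and posterior genes 22.8%. The summed HOX level was 407.4 ± 42.5 TPM (SD, n = 4) in normal ovary, 349.6 ± 23.4 (SD, n = 4) in early tumour and 344.6 ± 44.7 (SD, n = 5) in late tumour. The groups overlapped: normal libraries lay between 357.3 and 459.6 TPM, early libraries between 329.3 and 372.5, and late libraries between 274.4 and 389.6. In bulk tissue, fewer cells of a type and less RNA per cell cannot be told apart.

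The HOXA sum was 224.1 ± 12.5 TPM (SD, n = 4) in normal ovary, 184.6 ± 13.1 (SD, n = 4) in early tumour and 195.7 ± 27.9 (SD, n = 5) in late tumour. All 4 early tumours (172.6 to 201.4 TPM) lay below all 4 normal ovaries (212.1 to 236.1 TPM) for this sum. The separation held in TPM alone, and the same sum in CPM overlapped between early tumour and normal ovary. The HOXB sum was 104.8 ± 22.5, 91.6 ± 13.1 and 79.7 ± 25.2 TPM in the same order, with overlap. The HOXC sum was 64.7 ± 10.1, 60.3 ± 11.8 and 53.3 ± 11.4 TPM. HOXD gave the lowest sum in every library, at 13.9 ± 4.31, 13 ± 6.07 and 15.8 ± 7.5 TPM, and late 3 held 29.2 TPM of it. Without late 3 the late HOXD sum was 12.5 ± 1.00 TPM (SD, n = 4). The late HOXA, HOXB and HOXC sums were then 187.1 ± 23.4, 84.9 ± 25.9 and 48.8 ± 6.36 TPM.

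**Figure D2:**
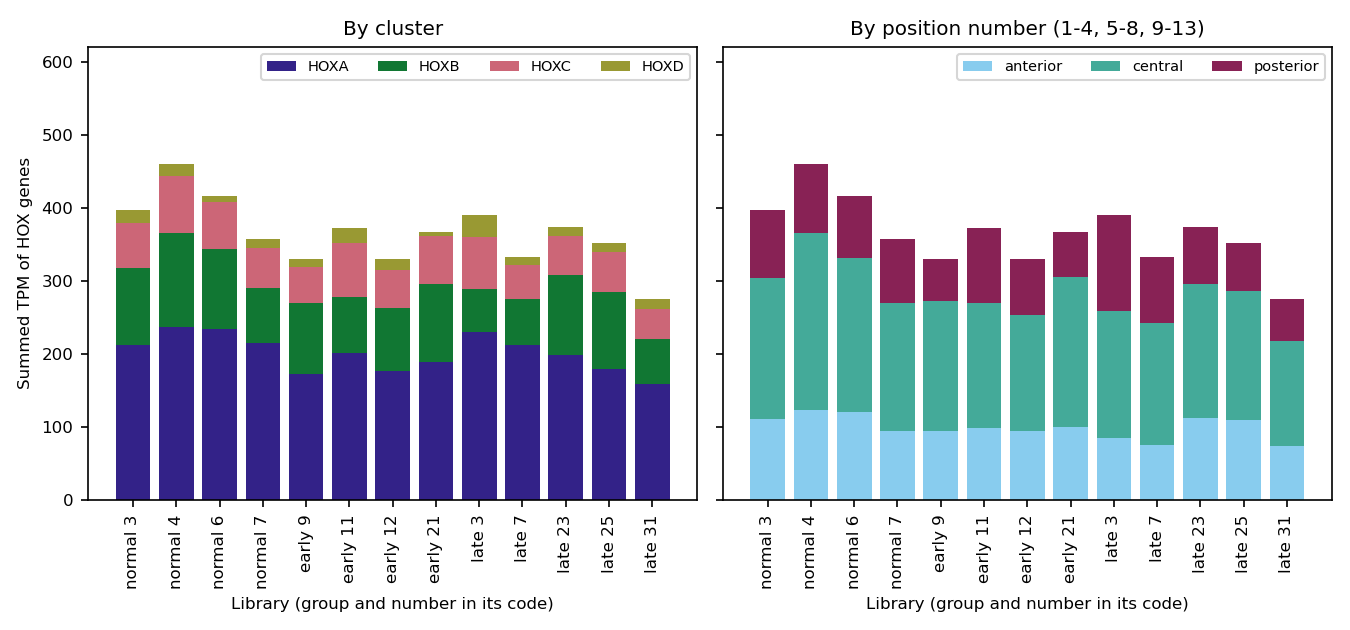
Summed TPM of HOX genes in each library, stacked by cluster (left) and by position number (right). HOXA genes and central genes make up the largest blocks in every library, and late 3 has the largest posterior block, 33.8% of its HOX TPM.

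Late tumour was compared with normal ovary to see which HOX genes differ in advanced disease. None of the 28 members passed an adjusted p of 0.05 in edgeR's quasi-likelihood test with Benjamini-Hochberg adjustment, where 0% of all 16130 genes passed. At an unadjusted p below 0.05, 5 of 28 members (17.9%) were called, beside 17.9% of all genes. All 5 had lower estimates in late tumour, a direction that 10.4% of all genes took at that threshold. They were HOXC9, HOXB6, HOXB4, HOXA4 and HOXA5. No member had groups that did not overlap in CPM, beside 2.61% of all genes. The median log2 fold change of the 28 members was -0.32, against 0.01 for all genes.

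HOXC9, a posterior gene that in the mouse specifies thoracic motor neurons and vertebrae, measured 23.1, 38.0, 26.0 and 18.3 TPM in normal 3, 4, 6 and 7. The late tumours had 4.91, 14.4, 12.3, 17.4 and 11.9 TPM in late 3, 7, 23, 25 and 31. In TPM every late library was below every normal library, while in CPM late 25 (8.97) was above normal 7 (7.85). The log2 fold change was -1.25 ± 0.42 (SE; adjusted p = 0.244, edgeR) and -1.04 ± 0.38 without late 3. Early tumours had 20.4, 15.1, 13.3 and 26.8 TPM and overlapped both groups.

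HOXB6, a central gene of the trunk, measured 7.77, 11.6, 11.7 and 5.02 TPM in normal 3, 4, 6 and 7. Its late values were 0.576, 2.84, 4.95, 5.98 and 3.04 TPM in late 3, 7, 23, 25 and 31. In TPM only late 25 was above the lowest normal library, normal 7. In CPM late 23 (14.7) was also above normal 7 (14.4). Late against normal gave a log2 fold change of -1.53 ± 0.56 (SE; adjusted p = 0.245, edgeR) and -1.24 ± 0.39 without late 3. HOXB6 in the early tumours was 9.30, 3.75, 4.52 and 10.7 TPM, with early 9 and 21 at the normal level.

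HOXB4, known in mammals for the expansion of blood stem cells, measured 17.5, 31.9, 20.5 and 7.99 TPM in normal 3, 4, 6 and 7. It measured 2.73, 3.90, 11.2, 13.2 and 6.26 TPM in late 3, 7, 23, 25 and 31. Normal 7 lay among the late tumours, and late 23 and 25 were above it. In the test, HOXB4 had a log2 fold change of -1.44 ± 0.56 (SE; adjusted p = 0.249, edgeR) and -1.22 ± 0.55 without late 3. Early 9 and 21 were higher (14.4 and 20.4 TPM) than early 11 and 12 (6.16 and 7.39 TPM).

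HOXA4 varied little between libraries. It measured 21.2, 24.3, 26.5 and 24.9 TPM in normal 3, 4, 6 and 7, and 19.9, 17.4, 20.2, 22.6 and 15.2 TPM in late 3, 7, 23, 25 and 31. Late 25 alone exceeded the lowest normal library. For HOXA4 the log2 fold change was -0.50 ± 0.21 (SE; adjusted p = 0.257, edgeR) and -0.49 ± 0.22 without late 3. HOXA5, which in the mouse is needed for lung development, measured 15.8, 22.6, 18.6 and 11.7 TPM in normal 3, 4, 6 and 7. The late values of HOXA5 were 4.68, 11.1, 15.8, 11 and 10.3 TPM in late 3, 7, 23, 25 and 31. In TPM late 23 lay at the level of normal 3, and the other late libraries were below all 4 normal ones. In CPM late 25 (13.8) was also above normal 7 (12.2). The log2 fold change of HOXA5 was -0.76 ± 0.35 (SE; adjusted p = 0.272, edgeR), and -0.56 ± 0.30 without late 3.

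**Figure D3:**
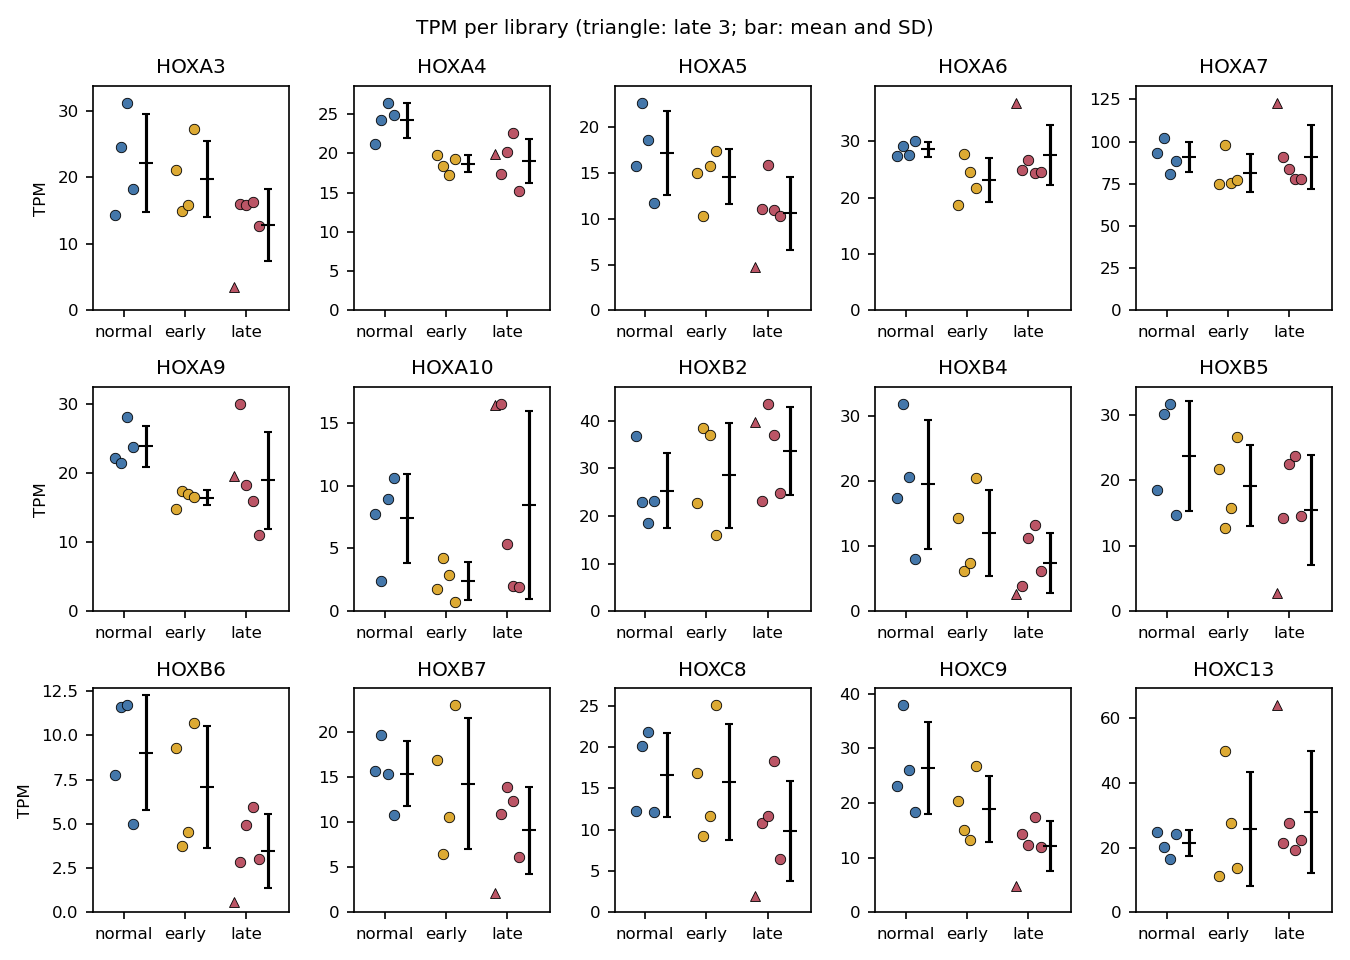
TPM of 15 HOX genes in each library (points, by group; the triangle is late 3), with the mean and SD of each group beside them; each panel has its own axis from 0. Late 3 is the lowest point for HOXA3, HOXA5, HOXB4 to HOXB7, HOXC8 and HOXC9, and the highest for HOXA6, HOXA7 and HOXC13.

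Further central and anterior genes among the more abundant members overlapped between the groups. HOXB5 measured 18.6, 30.1, 31.7 and 14.8 TPM in normal 3, 4, 6 and 7, and 2.76, 14.2, 22.6, 23.7 and 14.5 TPM in late 3, 7, 23, 25 and 31. HOXB7 measured 15.7, 19.7, 15.3 and 10.8 TPM in the normal libraries and 2.15, 10.9, 13.9, 12.3 and 6.18 TPM in the late ones. For both genes late 3 was the lowest of all 13 libraries. HOXC8, which in the mouse shapes the rib cage and brachial motor neurons, measured 12.3, 20.1, 21.9 and 12.1 TPM in the normal libraries and 1.97, 10.9, 11.6, 18.3 and 6.5 TPM in the late ones. HOXA3, a regulator of pharyngeal organs such as the thymus in the mouse, measured 14.4, 24.5, 31.2 and 18.3 TPM in the normal libraries. Its late values were 3.47, 16.0, 15.8, 16.2 and 12.7 TPM. Here too late 3 was far below the rest, and late 7, 23 and 25 lay between normal 3 and normal 7. The log2 fold changes were -0.72 ± 0.45 for HOXB5 and -0.76 ± 0.51 for HOXB7 (SE, adjusted p = 0.392 and 0.418, edgeR). For HOXC8 and HOXA3 they were -0.75 ± 0.53 and -0.87 ± 0.43 (SE, adjusted p = 0.441 and 0.295, edgeR). Without late 3 the log2 fold changes of HOXB5, HOXB7, HOXC8 and HOXA3 were -0.45 ± 0.33, -0.51 ± 0.43, -0.49 ± 0.43 and -0.62 ± 0.34.

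Read by position, the central genes had estimates of 1 sign, although they share libraries and several overlap each other. All 9 of 9 central members had a fitted log2 fold change below 0 in late tumour, with a median of -0.75, beside 49.1% of all genes below 0. Without late 3 the count was again 9 of 9 with a median of -0.49, and without normal 4 it was 8 of 9, with HOXA7 at 0.052. HOXA7 and HOXA6 were the central genes nearest to 0, at -0.08 ± 0.16 and -0.16 ± 0.18 (SE). Without late 3 they were at -0.19 ± 0.15 and -0.25 ± 0.18. Of the 10 anterior members tested, 7 were below 0 (median -0.36), among them HOXA2 at -1.05 ± 0.50 (SE; adjusted p = 0.284, edgeR), a hindbrain and neural crest gene that was at -0.77 ± 0.37 without late 3. HOXB1, HOXB2 and HOXD3 were the anterior members above 0, and without late 3 HOXB2 was the one left above 0.

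For the posterior genes the split depended on late 3. With all libraries 7 of 9 posterior members were above 0, with a median log2 fold change of 0.20. Without late 3, 3 of 9 were above 0 and the median was -0.06. HOXC13 measured 24.8, 20.1, 16.6 and 24.4 TPM in normal 3, 4, 6 and 7, and 64.2, 21.5, 27.6, 19.2 and 22.3 TPM in late 3, 7, 23, 25 and 31. Its log2 fold change was 0.36 ± 0.37 (SE; adjusted p = 0.611, edgeR) and -0.06 ± 0.30 without late 3. HOXD9 was 16.5 TPM in late 3 and 3.21 to 5.96 TPM in the other late libraries, inside the normal range of 1.92 to 9.51 TPM. The posterior sum of late 3 was 131.7 TPM, beside 89.98 ± 4.12 (SD, n = 4) in normal ovary and 73.1 ± 15.0 (SD, n = 4) in the other late tumours.

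By cluster, the median log2 fold change of late tumour against normal ovary was -0.16 for HOXA, -0.66 for HOXB, -0.75 for the 3 HOXC members and 0.14 for HOXD. Without late 3 these medians were -0.29, -0.42, -0.49 and -0.11. The HOXD median was also below 0 without normal 6 (-0.078) and without normal 7 (-0.014), so its positive sign depended on single libraries. HOXB2, a hindbrain gene and the most abundant HOXB member, measured 36.7, 23, 18.5 and 23.2 TPM in normal 3, 4, 6 and 7. It measured 39.6, 23.1, 43.6, 37.0 and 24.8 TPM in late 3, 7, 23, 25 and 31. In TPM late 3, 23 and 25 were above the highest normal library, and late 7 and 31 lay inside the normal range. In CPM late 3 (36.8) was below normal 3 (37.5). Its log2 fold change was 0.30 ± 0.27 (SE; adjusted p = 0.535, edgeR), beside -1.44 for HOXB4 and -1.53 for HOXB6 in the same cluster.

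**Figure D4:**
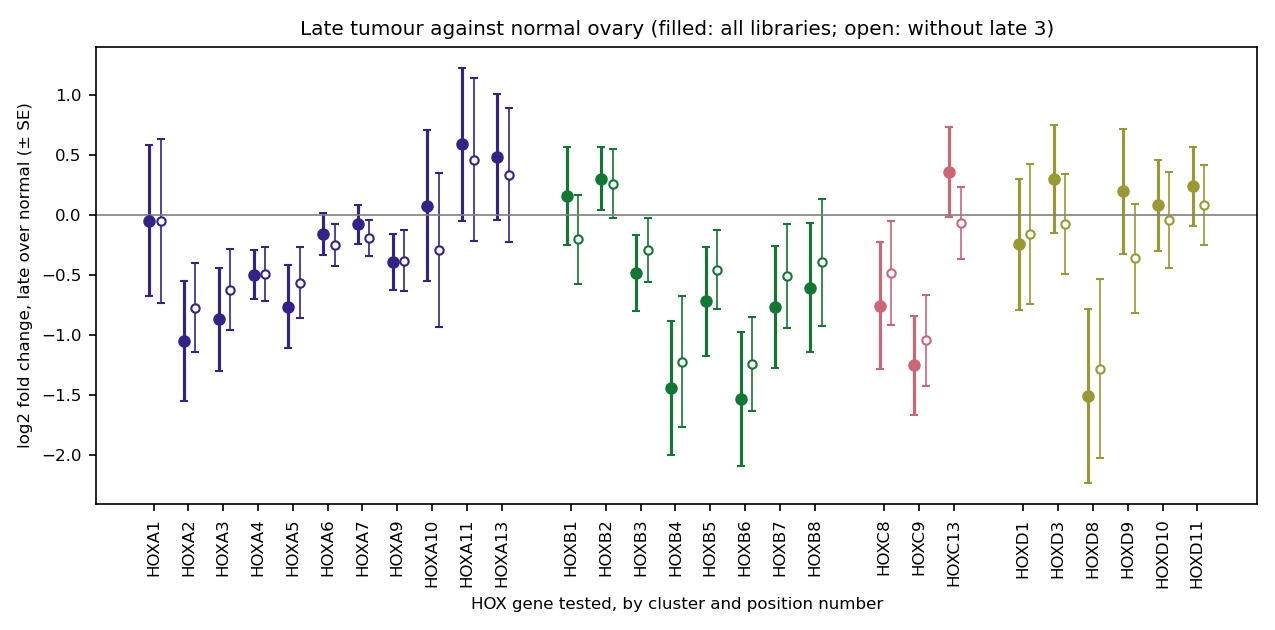
Fitted log2 fold change of late tumour over normal ovary (vertical axis, with its SE) for the 28 HOX genes tested, by cluster and position number; filled points use all libraries and open points leave out late 3. Central genes lie below 0 with either set, and HOXC13, HOXD3, HOXD9, HOXD10, HOXA10 and HOXB1 lie above 0 only with late 3.

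Markers of other cell types were measured in the same libraries. Smooth muscle markers summed to 772 to 9413 TPM in normal ovary, 521 to 3412 in early tumour and 255 to 1602 in late tumour. In late tumour against normal ovary 12 of 13 were lower at an unadjusted p below 0.05 (edgeR), beside 10.4% of all genes. Fibroblast and matrix markers summed to 1535 to 5057, 721 to 3272 and 476 to 1897 TPM, with 6 of 14 lower at that threshold. No marker of either list passed an adjusted p of 0.05. Of 14 listed smooth muscle markers 13 were measured, and all 13 had counts, as had all 14 fibroblast and matrix markers. Late 3, lowest for both sums, was also the lowest library in CPM for 11 of the 28 HOX members tested, beside 20.7% of all genes. These members were HOXA2, HOXA3, HOXA5, HOXB3 to HOXB8, HOXC8 and HOXC9. Late 3 was the highest for 4 (HOXB1, HOXC13, HOXD3 and HOXD9), beside 19.6% of all genes. Normal 4, with the highest smooth muscle sum (9413 TPM), was the highest library in CPM for 10 members, beside 13.5% of all genes. Normal 4 also had the highest sums of 6 skeletal muscle markers (739 TPM) and 7 nerve markers (208 TPM). The next highest were 586 TPM in normal 3 and 57.2 TPM in late 3. Without normal 4, 1 member had an unadjusted p below 0.05 in late tumour against normal ovary (edgeR), beside 7.73% of all genes. Normal 3 had a smooth muscle sum of 8521 TPM and the highest fibroblast and matrix sum (5057 TPM). It was the highest library in CPM for 2 members, beside 9.58% of all genes. The part of these cell types in the HOX values was not tested.

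Early tumour was compared with normal ovary to see whether HOX genes differ at the earlier stage. None of the 28 members passed an adjusted p of 0.05 (edgeR; 0% of all genes), and 1 passed an unadjusted p of 0.05 (3.57%), beside 5.04% of all genes. That gene was HOXA10, with a lower estimate in early tumour, as for 2.9% of all genes at that threshold. Fitted log2 fold changes were below 0 for 22 of 28 members (78.6%), beside 48.0% of all genes, with a median of -0.26. Without normal 4 they were below 0 for 16 of 28, with a median of -0.11. All 9 central members were below 0 (median -0.29). This count was 5 of 9 without normal 4, 8 of 9 with DESeq2 or its scaling and 6 of 9 with voom.

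In CPM, 2 of the 28 members had early values all below the normal ones, HOXA6 and HOXA9, beside 2.36% of all genes with groups that did not overlap. HOXA9 measured 22.1, 21.5, 28.1 and 23.8 TPM in normal 3, 4, 6 and 7, and 14.9, 17.3, 17.0 and 16.6 TPM in early 9, 11, 12 and 21. Its log2 fold change was -0.52 ± 0.25 (SE; adjusted p = 0.916, edgeR). In the late tumours HOXA9 ran from 11.03 TPM in late 31 to 30.03 TPM in late 7, with 19.5, 18.3 and 16.0 TPM in late 3, 23 and 25. The late group thus spanned both other groups.

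HOXA6 measured 27.3, 29.2, 27.6 and 29.9 TPM in normal 3, 4, 6 and 7, and 18.6, 27.7, 24.5 and 21.7 TPM in early 9, 11, 12 and 21. In TPM early 11 was above normal 3 and normal 6, so the separation held in CPM alone. Its log2 fold change was -0.31 ± 0.19 (SE; adjusted p = 0.916, edgeR). The late values of HOXA6 were 36.8, 24.8, 26.6, 24.4 and 24.6 TPM, of which late 3 exceeded the normal range and the others lay below it. HOXA4 in the early tumours (19.8, 18.4, 17.3 and 19.3 TPM) lay below every normal library in TPM, but not in CPM. Its log2 fold change was -0.35 ± 0.22 (SE; adjusted p = 0.916, edgeR).

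HOXA10, which in the mouse and in human acts in uterine receptivity, varied the most among members above 5 TPM. It measured 7.70, 2.40, 8.92 and 10.6 TPM in normal 3, 4, 6 and 7. Early tumours had 1.77, 4.23, 2.88 and 0.710 TPM in early 9, 11, 12 and 21, and late tumours had 16.4, 16.5, 5.39, 1.98 and 1.93 TPM in late 3, 7, 23, 25 and 31. Normal 4 lay inside the early range, and the late group split into late 3 and 7 above every other library and late 25 and 31 at the early level. Early tumour against normal ovary gave a log2 fold change of -1.66 ± 0.69 (SE; unadjusted p = 0.0305, adjusted p = 0.916, edgeR). Without early 21 it was -1.36 ± 0.72, and no HOX gene had an unadjusted p below 0.05.

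Late tumour was compared with early tumour to see whether HOX genes differ between stages. None of the 28 members passed an adjusted p of 0.05 (edgeR; 0% of all genes), and 1 passed an unadjusted p of 0.05 (3.57%), beside 6.34% of all genes. It was again HOXA10, higher in late tumour at a log2 fold change of 1.74 ± 0.67 (SE; adjusted p = 0.736, edgeR), a direction that 2.39% of all genes took at that threshold. HOXA10 was at 1.37 ± 0.66 without late 3, 1.35 ± 0.66 without late 7 and 1.45 ± 0.70 without early 21, and in each case no HOX gene had an unadjusted p below 0.05. This comparison shares its early libraries with the one above. No member had groups that did not overlap in CPM, beside 1.59% of all genes. The median log2 fold change was -0.04, with 7 of 9 central members below 0 and 8 of 9 posterior members above 0, beside 49.5% of all genes below 0. Without late 3 the median was -0.15, with 8 of 9 central members below 0 and 6 of 9 posterior members above 0. HOXB6 (-1.10 ± 0.55), HOXB4 (-0.80 ± 0.56) and HOXC9 (-0.80 ± 0.41) had the lowest estimates (SE; adjusted p = 0.736, 0.741 and 0.736, edgeR).

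The transcripts between HOX genes give another readout of the same loci. RefSeq places 15 further genes inside the clusters, 13 of them long non-coding RNAs, and 10 were tested. HOXA10-AS, an antisense RNA that overlaps HOXA9 and HOXA10, measured 20.7, 9.20, 19.6 and 13.6 TPM in normal 3, 4, 6 and 7. Early tumours had 3.34, 4.25, 2.56 and 4.27 TPM, and late tumours had 14.6, 14.8, 3.25, 4.16 and 2.54 TPM in late 3, 7, 23, 25 and 31. Every early library was below every normal one, and late 3 and 7 lay in the normal range while late 23, 25 and 31 lay at the early level. The log2 fold change was -2.08 ± 0.54 in early tumour against normal ovary and -1.14 ± 0.49 in late tumour against normal ovary (SE; adjusted p = 0.916 and 0.261, edgeR). The use of strand in counting is not given in the sources used here, so reads of HOXA10-AS and of HOXA9 or HOXA10 cannot be told apart.

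In late tumour against normal ovary, 4 other transcripts inside the clusters had an unadjusted p below 0.05, all lower, beside 10.4% of all genes lower at that threshold. They were LOC107055286 (-1.99 ± 0.58) and LOC121107685 (-1.59 ± 0.48) in HOXB, LOC121109556 (-0.98 ± 0.36) in HOXA, and LOC124417424 (-0.89 ± 0.38) in HOXB. The values are log2 fold changes with SE, and adjusted p ran from 0.244 to 0.257 (edgeR). LOC124417424 overlaps HOXB3, HOXB5, HOXB6 and HOXB7, and LOC121109556 overlaps HOXA3, HOXA5, HOXA6 and HOXA7. In RefSeq 19 of the 35 members overlap another gene and 12 overlap another HOX gene, among them HOXA3 with HOXA4, HOXA5 and HOXA6, and HOXB3 with HOXB4, HOXB5 and HOXB6. Of the 28 members tested, 21 carried a count that was not whole in at least 1 library, and values of overlapping genes are uncertain to that extent.

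The clusters also hold miRNA genes of the miR-10 and miR-196 families. The miRNA libraries held 3038930 to 7728290 counts, and 6 mature miRNAs of these families were among the 266 tested. miR-196-5p measured 198, 332, 515 and 416 CPM in normal 3, 4, 6 and 7. It measured 163, 136, 47.9 and 211 CPM in early 9, 11, 12 and 21, and 396, 477, 32.6, 37.5 and 190 CPM in late 3, 7, 23, 25 and 31. The late group again had late 3 and 7 on top, as for HOXA10 and HOXA10-AS, and late 23 and 25 lowest of all 13 libraries. The log2 fold change was -1.39 ± 0.75 in early tumour against normal ovary and -0.69 ± 0.70 in late tumour against normal ovary (SE; adjusted p = 0.653 and 0.626, edgeR; 0% and 0.752% of the miRNAs called). Hairpins for this arm lie in HOXA (MIR196B, inside the HOXA9 and HOXA10-AS span), HOXB (MIR196A1) and HOXC (MIR196A2), so its counts cannot be assigned to one cluster.

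**Figure D5:**
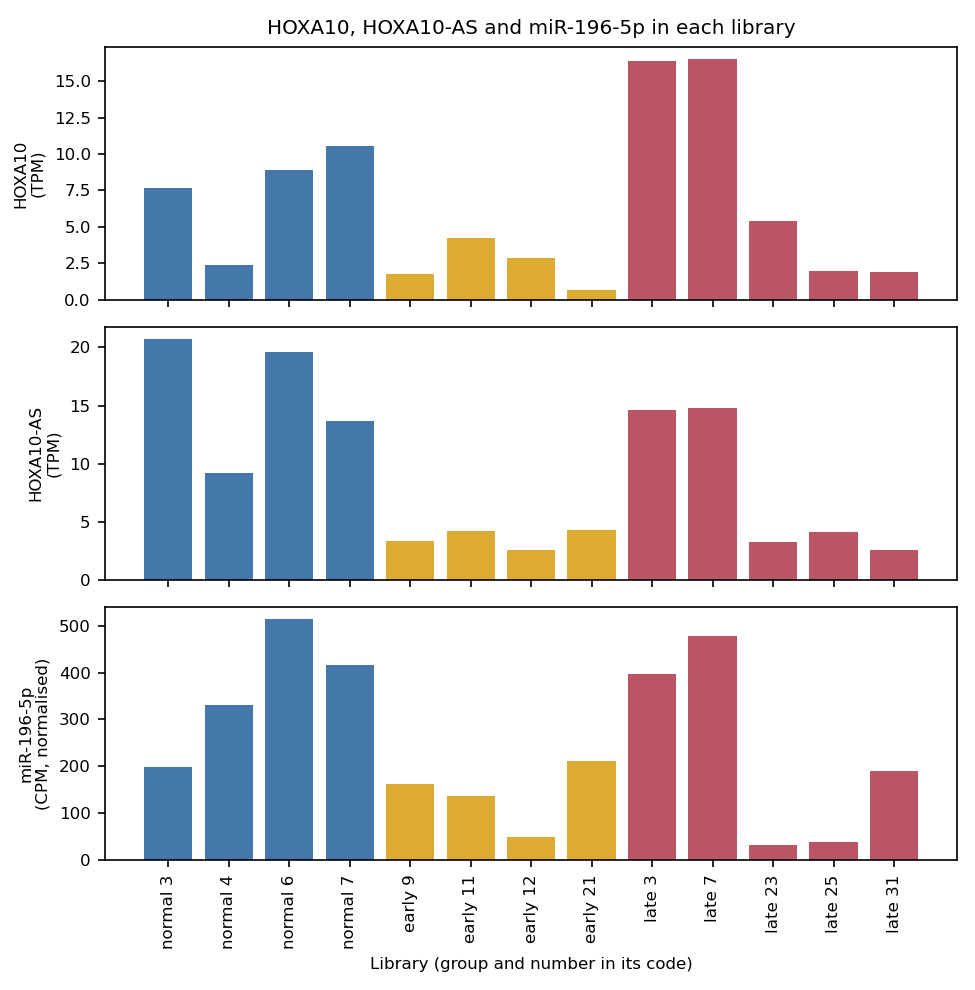
HOXA10 and HOXA10-AS in TPM and miR-196-5p in normalised CPM (bars, vertical axes from 0) in each of the 13 libraries. Late 3 and late 7 are the highest late bars in all 3 panels, and late 23, 25 and 31 are lower than both in each panel.

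miR-10b-5p, from the HOXD cluster, was the HOX-cluster miRNA with the smallest p. It measured 672, 929, 648 and 368 CPM in normal 3, 4, 6 and 7, and 335, 283, 242, 232 and 454 CPM in late 3, 7, 23, 25 and 31. Late 31 was above normal 7, and the other late libraries were below all 4 normal ones. Its log2 fold change was -1.08 ± 0.26 (SE; adjusted p = 0.0517, edgeR), just short of the threshold. Early tumours had 431, 402, 443 and 569 CPM. miR-10a-5p, from the HOXB cluster, was far more abundant, at 25069 ± 3453 CPM (SD, n = 4) in normal ovary, 18916 ± 6332 (SD, n = 4) in early tumour and 20175 ± 5213 (SD, n = 5) in late tumour, with overlap.

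HOX proteins bind DNA with cofactors of the TALE homeodomain class. Of 11 such genes, 9 were in the table and tested, none passed an adjusted p of 0.05, and 7 of 9 were lower in late tumour than in normal ovary (median log2 fold change -0.52). MEIS2 (-0.66 ± 0.30) had a lower estimate and PKNOX1 (0.41 ± 0.18) a higher one at an unadjusted p below 0.05 (SE; adjusted p = 0.271 and 0.268, edgeR). MEIS2 was 45.7 ± 12.7 TPM (SD, n = 4) in normal ovary, 37.1 ± 7.24 (SD, n = 4) in early tumour and 30.8 ± 8.09 (SD, n = 5) in late tumour. Late 3 had 17.2 TPM of MEIS2.

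Polycomb and Trithorax proteins keep HOX genes silent and active, respectively. None of the 25 Polycomb and 9 Trithorax genes tested passed an adjusted p of 0.05 in any comparison. In late tumour against normal ovary, 3 Polycomb genes had higher and 4 had lower estimates at an unadjusted p below 0.05. Of all genes, 17.9% were called at that threshold, 10.4% with lower estimates. The median log2 fold change of the list was -0.12. PCGF6 (0.53 ± 0.17) and CBX6 (-1.08 ± 0.30) had the smallest p in each direction (SE; both adjusted p = 0.244, edgeR). Among the Trithorax genes KMT2D had a log2 fold change of -1.07 ± 0.24 in late and -0.97 ± 0.26 in early tumour against normal ovary (SE; adjusted p = 0.244 and 0.916, edgeR). Both comparisons share the normal libraries. CDX and retinoic acid genes are upstream regulators of HOX transcription in the embryo. Of the 20 in the table, 16 were tested and none passed an adjusted p of 0.05. CDX1, CDX2 and CDX4 were not among those tested, at means of 0.0202, 0.111 and 0.00791 TPM over all libraries. The retinoic acid receptor RARA (-1.24 ± 0.43) and its partner RXRA (-0.49 ± 0.16) had lower estimates in late tumour at an unadjusted p below 0.05 (SE; both adjusted p = 0.244, edgeR).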

How the data were processed

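RNA of chicken ovary was measured in 13 messenger RNA and 13 miRNA libraries. The authors deposited estimated counts per gene (not normalised; 29.9% of values are not whole), TPM values for the same genes, and whole counts per miRNA; a miRNA row without a name held 0 counts. Per the submitters' processing notes, the tools were FastQC, BWA and GATK 3.3.0, without a stated role. The counting program, the genome build, the strand setting and the handling of multiply matching reads were not given in the sources used here. Table columns were matched to groups by sample code.

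Counts were rounded and tested with edgeR 4.0.16 (R 4.3.3): TMM scaling, filterByExpr with a minimum count of 10, 1 robust quasi-likelihood fit over all 13 libraries, and Benjamini-Hochberg adjustment over all 16130 genes (266 miRNAs) at 0.05. The common coefficient of variation between libraries was 33.6%. Levels are deposited TPM. Gene overlaps and miRNA positions come from RefSeq (GRCg7b), where all 35 members were found, and no coordinates are printed. The HOX genes and all lists were chosen with earlier results of these data known. Values in every library are given for the 12 members with the highest mean TPM and for any with an unadjusted p below 0.05; list genes are named by the same p or as the most abundant 2, and some list genes are not reported here. The floor of 3 counts covers counting error only, while SE and SD include variation between libraries. Alternatives used DESeq2 1.42.0, limma 3.58.1 (voom with quality weights, and log2(TPM + 1) or log2(TPM + 0.1)), library-size and RLE scaling, no filter, a minimum count of 30, the groups of each comparison alone, a replicate block and leaving out each library. The fitting was tested on simulated data.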

Additional observations from a re-analysis of the deposited data

Results flagged for a closer look

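In groups of 4 or 5 libraries, a library whose gap to its nearest neighbour took up most of the group's range was singled out by Dixon's test. Chance singles out about 1 in 20 groups: 132 group values were examined, 6.6 would be expected and 10 were found. Late 3 accounted for 7 of them. It was the low library for HOXA3 (3.47 TPM) and the high one for HOXA6 (36.8 TPM), HOXA7 (123.1 TPM), HOXC13 (64.2 TPM), HOXD3 (5.83 TPM), HOXD9 (16.5 TPM) and the summed HOXD level (29.2 TPM). Early 11 was the high early library for HOXA7 (98.3 TPM) and HOXD3 (4.86 TPM). Late 23 was the high late library for HOXC12 (1.13 TPM), where the other late libraries had at most 5 counts.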

How the results depend on the processing

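No HOX gene passed an adjusted p of 0.05 in any comparison under any setting run. Counts over all genes did move: DESeq2 called 8 genes in early against normal, 126 in late against normal and 9 in late against early, and voom called 893 in late against normal, where edgeR called 0. Leaving out 1 library gave 0 to 113 genes in late against normal, with 113 without normal 7. At an unadjusted p below 0.05, the HOX count of 5 in late against normal (17.9% of all genes) became 1 without normal 4 (7.73% of all genes), 11 without late 25 (23.8%), 3 without normal 6, late 7 or late 31 (12.7%, 14.3% and 14.1%), and 8 with DESeq2 or voom (20.3% and 30.6%). In late against early the count of 1 became 0 without late 3, late 7 or early 21, 4 without early 11 (16.0%), 6 without late 25 (8.25%) and 7 with voom (18.4%). The smallest adjusted p of a member was 0.0501, for HOXC9 with voom; the cause was not tested. Leaving out 1 library moved the log2 fold change of HOXA7 in late against normal between -0.192 and 0.052, and that of HOXC13 between -0.064 and 0.471. miR-10b-5p passed the threshold in late against normal with DESeq2 (adjusted p = 0.0218), with no filter (0.0125), without normal 7 (0.0131) and without late 31 (0.0383).

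Codes 3 and 7 occur in both normal and late libraries. Deviations of same-numbered libraries from their group means correlated at 0.00207 for number 3 and -0.136 for number 7. For libraries with unlike numbers they correlated at -0.0905 (normal 3 and late 7) and 0.408 (normal 7 and late 3). Whether the numbers pair the samples cannot be told from so few correlations. With a replicate block on these codes 0 HOX genes were called. In late against normal 9 had an unadjusted p below 0.05, beside 20.3% of all genes. In late against early 0 had, beside 3.10% of all genes, and HOXA10 was at 0.73. The precision of all estimates is limited by 4 or 5 libraries a group.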

Other observations

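Regulators of the reproductive tract and gonad, many of which act beside HOX genes in the embryo, were also measured. Of 15 tested, none passed an adjusted p of 0.05 (edgeR) in any comparison, and none had an unadjusted p below 0.05 in late or early tumour against normal ovary. FOXL2, a granulosa cell factor, was the most abundant, at 439.2 ± 152.5 TPM (SD, n = 4) in normal ovary and 395.5 ± 160.7 (SD, n = 5) in late tumour. WT1 was at 198.0 ± 64.7 TPM (SD, n = 4) in normal ovary and 242.97 ± 34.95 (SD, n = 5) in late tumour. Late tumour against early tumour gave log2 fold changes of 1.06 ± 0.43 for LHX1, -1.08 ± 0.47 for LHX9 and -0.51 ± 0.18 for WNT5A at an unadjusted p below 0.05 (SE, edgeR). The shares of all genes at that threshold were 17.9% in late and 5.04% in early tumour against normal ovary, and 6.34% in late against early tumour.

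Genes that flank the clusters had a median log2 fold change of -0.10 in late tumour against normal ovary (18 tested), beside -0.32 for the HOX members. At an unadjusted p below 0.05, NFE2L1 (-0.59 ± 0.18) and HNRNPA1 (-0.54 ± 0.25) had lower estimates and LNPK (0.43 ± 0.20) a higher one (SE; adjusted p = 0.244, 0.277 and 0.272, edgeR). Of all genes, 17.9% were called at that threshold.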
